A study of Mus musculus with 3 samples.

Results

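The miR-181 family comprises the microRNAs miR-181a, miR-181b, miR-181c and miR-181d, and it was followed here through every strand listed in a small RNA sequencing table of mouse visceral fat. Members were all rows whose name starts with one of these 4 names, which gave 10 of the 1251 mature miRNAs listed. They are 4 guide strands from the 5′ side of the hairpin (5p) and 6 strands from the 3′ side (3p). The tissue was epididymal white fat of 3 C57BL/6J mice, numbered 1, 3 and 9. All 3 mice had eaten a high-fat diet with 6.75% EPA (eicosapentaenoic acid, a fish-oil lipid of the omega-3 class), on a basis that is not stated. Its energy came to 45% from fat, to 20% from protein and to 35% from carbohydrate. Feeding began at 5 to 6 weeks of age and lasted 11 weeks, and the fat was taken after a 4 h fast. No control diet was analysed here, so no value measures an effect of EPA. Separate animals are implied by the titles of the samples but nowhere stated outright. The p-values therefore set a mean difference between strands only against the spread between these samples, and that spread may be technical.

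MicroRNAs are cut from hairpin precursors and repress messenger RNAs that pair with their seed, bases 2 to 8 of the mature strand. In mice, miR-181a is known for setting the sensitivity of developing T cells to antigen, and miR-181b for restraining NF-κB signalling in vascular endothelium. In mouse white fat the family has been linked to energy balance, insulin sensitivity and inflammation of the tissue.

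The 4 guides are shown because they share the seed while their levels ran from among the highest in this fat (miR-181a-5p) to far lower (miR-181d-5p). The capitals mark bases 2 to 8, and the sequences are from RefSeq (GRCm38.p6).
miR-181a-5p: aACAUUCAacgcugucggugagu
miR-181b-5p: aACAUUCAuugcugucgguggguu
miR-181c-5p: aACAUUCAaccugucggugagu
miR-181d-5p: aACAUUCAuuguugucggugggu
These 4 were the only mature mouse miRNAs with that seed among 1679 in the RefSeq table. miR-181a-5p and miR-181c-5p differ by 1 edit, a single base that miR-181c-5p lacks. Counting from 1 at the 5′ end, miR-181a-5p and miR-181b-5p differ by A9U, C10U and A21G over their shared length. miR-181b-5p and miR-181d-5p differ by C12U there, and miR-181b-5p is longer (24 against 23 bases). The handling of reads that match more than 1 member is not given in the sources used here, so some exchange of reads between such close members cannot be told apart from true levels.

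The 3p strands that were seen carry other seeds.
miR-181a-1-3p: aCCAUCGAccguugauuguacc
miR-181a-2-3p: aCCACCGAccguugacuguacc
miR-181c-3p: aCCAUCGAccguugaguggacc
miR-181a-1-3p and miR-181c-3p share a seed. miR-181a-1-3p and miR-181a-2-3p differ by U5C, which lies in the seed, and by U16C. These substitutions tell apart the 2 hairpins that release the same miR-181a-5p.

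The family is made from 6 hairpins in 3 pairs on the mouse assembly GRCm38 (mm10), with gene annotation from GENCODE M21. On chromosome 1, plus strand, Mir181a-1 (chr1:137966455-137966541) and Mir181b-1 (chr1:137966639-137966718) stand 97 bases apart in an intron of the non-coding gene Gm4258. Mir181b-1 also lies inside an exon of the long non-coding RNA A430106G13Rik, and Mir181a-1 overlaps that exon in part. On chromosome 2, plus strand, Mir181a-2 (chr2:38852735-38852810) and Mir181b-2 (chr2:38853830-38853918) are separated by 1019 bases, opposite to an intron of the nuclear receptor gene Nr6a1. On chromosome 8, minus strand, Mir181c (chr8:84178873-84178961) and Mir181d (chr8:84178716-84178787) are 85 bases apart in an intron of Nanos3. The hairpins of miR-181a are shown because the strands they release, in capitals, are the same on the 5′ side and different on the 3′ side.
Mir181a-1: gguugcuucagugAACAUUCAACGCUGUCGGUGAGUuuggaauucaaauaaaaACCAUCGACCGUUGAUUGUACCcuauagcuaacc
Mir181a-2: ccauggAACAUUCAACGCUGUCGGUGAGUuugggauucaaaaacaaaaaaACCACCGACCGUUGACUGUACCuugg

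The values are deposited log2 normalized counts that include a constant of 10, so a miRNA with no reads stands at 3.32, the floor of the scale. Linear values below have this constant removed. The number of reads behind each value is unknown. The sorted values of the 3 mice are nearly equal (85 of the top 100 ranks within 1e-06), so a difference between mice is largely a difference of rank. Of all miRNAs, 287 exceeded the floor in every mouse and 888 never did.

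miR-181a-5p was among the most abundant miRNAs of this fat, and the family was mostly that 1 strand. It stood at 16.38 log2 units in mouse 1, 15.87 in mouse 3 and 16.38 in mouse 9. Mouse 3 was the lowest, and mice 1 and 9 were equal. The strand ranked 8, 11 and 8 of all miRNAs in mice 1, 3 and 9, and it held 3.19% ± 0.606 of the summed linear value (SD, n = 3). The whole family held 3.49% ± 0.608, and the share in mouse 1 was 3.82%, in mouse 3 2.78% and in mouse 9 3.86%. In whole tissue, fewer cells of a type and less RNA per cell cannot be told apart.

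The neighbours of miR-181a-5p by mean level were the growth-restraining let-7c-5p and let-7a-5p above it, and miR-30a-5p and miR-378a-3p below it. let-7c-5p (16.65 ± 0.12 log2 units, SD, n = 3) and let-7a-5p (16.34 ± 0.28) were higher than miR-181a-5p (16.21 ± 0.29) in 3 of 3 mice. miR-30a-5p, of a family that promotes fat cell formation, had 16.18 in each mouse, and miR-378a-3p, encoded in the Ppargc1b gene, had 16.07 ± 0.63. miR-181a-5p was higher than each of these in 2 of 3 mice, so its order with them was within the spread between mice.

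The guides miR-181b-5p and miR-181c-5p followed far below. miR-181b-5p had 11.70, 11.81 and 11.94 log2 units in mice 1, 3 and 9, and ranked 58, 56 and 54. miR-181c-5p had 11.38, 11.48 and 11.48, and ranked 64, 62 and 62. The strands were close to each other in every mouse, with miR-181b-5p the higher in 3 of 3. Neither was lowest in mouse 3, where miR-181a-5p was lowest.

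miR-181d-5p was the scarcest guide, although its hairpin is the neighbour of that of miR-181c. It had 7.91 log2 units in mouse 1, 7.50 in mouse 3 and 7.60 in mouse 9, which put it at ranks 151, 165 and 162. Its linear level averaged 195.2 ± 31.2, against 2779 ± 106 for miR-181c-5p (SD, n = 3). miR-181c-5p was 11.5, 16.6 and 15.4 times miR-181d-5p in mice 1, 3 and 9.

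**Figure D1:**
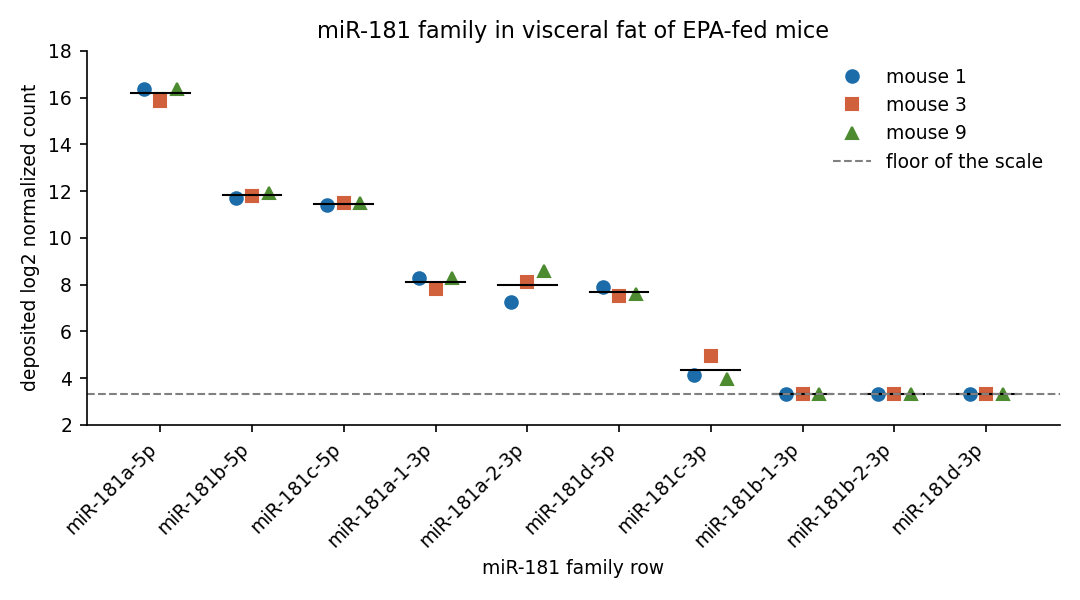
Deposited log2 normalized counts (vertical axis) of the 10 miR-181 rows in order of mean level, with 1 symbol per mouse, a bar at the mean of 3 mice and a dashed line at the floor of 3.32. miR-181a-5p stands near 16 in every mouse, miR-181b-5p and miR-181c-5p lie between 11.38 and 11.94, and 3 of the 3p strands sit on the floor.

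Of the 6 strands of the 3p side, 3 were above the floor in every mouse. miR-181a-1-3p had 8.27, 7.81 and 8.29 log2 units in mice 1, 3 and 9. miR-181a-2-3p had 7.25, 8.11 and 8.60. The miR-181a-1-3p strand was lowest in mouse 3, as was miR-181a-5p, whereas miR-181a-2-3p was lowest in mouse 1. miR-181c-3p stayed near the floor at 4.13, 4.96 and 3.96, and its highest mouse was mouse 3. miR-181b-1-3p, miR-181b-2-3p and miR-181d-3p stood at the floor in all mice and were not detectable in these libraries.

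Within the family sum, miR-181a-5p took 91.3% ± 1.71, miR-181b-5p 4.38% ± 0.873 and miR-181c-5p 3.40% ± 0.733 (SD, n = 3). miR-181d-5p took 0.235% ± 0.0314. All 3p strands together took 0.660% ± 0.149, the mice 1, 3 and 9 having 0.488%, 0.751% and 0.740%. The share of the other guides together was largest in mouse 3, at 9.82%, against 6.75% in mouse 1 and 7.47% in mouse 9. miR-181a-5p, which is part of the same sum, was lowest in mouse 3.

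**Figure D2:**
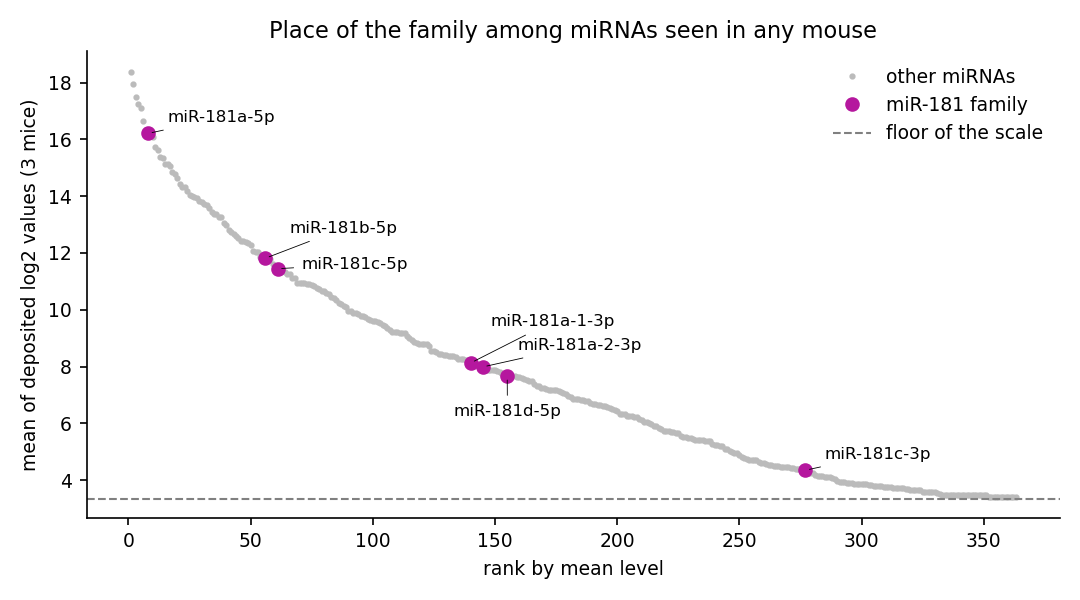
Mean deposited log2 value over 3 mice (vertical axis) against rank by mean level (horizontal axis) for the 363 miRNAs seen in any mouse, with the miR-181 family in colour and the floor as a dashed line. The 7 family rows that were seen run from rank 8 (miR-181a-5p) to rank 277 (miR-181c-3p).

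The difference between the guides was then set against the spread between mice, in a fit over all pairs of letter paralogs (miRNAs of the same number and arm with another letter). The fit held 91 pairs whose higher member had a mean linear level of at least 100, and it tested the log2 difference, earlier letter minus later letter, with limma's moderated test, two-sided, with Benjamini-Hochberg adjustment over all pairs. All 6 pairs of miR-181 guides passed an adjusted p of 0.05 with the earlier letter higher. The background was 59.3% of pairs called in that direction, 30.8% in the other and 90.1% in either, so passing this test was the rule for paralogs in this fat. The 6 pairs share 4 strands and are not independent.

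miR-181a-5p stood above miR-181b-5p by 4.68 log2 units in mouse 1, 4.06 in mouse 3 and 4.44 in mouse 9. The mean difference was 4.40 (SE 0.15, limma adjusted p 0.000111, higher in 3 of 3 mice). Against miR-181c-5p the difference was 4.76 (SE 0.15, limma adjusted p 0.000108), and against miR-181d-5p 8.54 (SE 0.11, limma adjusted p 4.11e-05). The median size of the difference over the 91 pairs was 2.40, and 97.8% of the pairs differed by less than miR-181a-5p and miR-181d-5p did. In 7 of the 91 pairs 1 member stood at the floor throughout, which fixes the direction and limits the size. None of those was a miR-181 pair.

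Among the lower guides, miR-181b-5p exceeded miR-181d-5p by 4.14 log2 units (SE 0.16, limma adjusted p 0.000145) and miR-181c-5p exceeded miR-181d-5p by 3.77 (SE 0.15, limma adjusted p 0.000145). miR-181b-5p exceeded miR-181c-5p by 0.32, 0.33 and 0.46 in mice 1, 3 and 9. The mean difference was 0.37 (SE 0.07, 95% interval 0.16 to 0.58, limma adjusted p 0.0117). This call depended on single mice, since the limma adjusted p was 0.0643 without mouse 1 and 0.0504 without mouse 3. Differences between miRNAs within a library also include any unequal capture of different sequences, which was not tested.

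The dominance of 1 member was then compared with other families by description, without a test. Strands with a locus number in their names, such as miR-181a-1-3p, were left out. In 5 families so counted at least 3 letter paralogs of 1 arm had a mean linear level of 100 or more. The 3p strands of miR-30 would otherwise have counted too, and no share was taken for them. Among the 4 guides of miR-181, miR-181a-5p took 91.9% ± 1.63 of their sum (SD, n = 3). The highest member took 96.0% ± 0.577 in the miR-29 family (miR-29a-3p) and 94.5% ± 0.713 among the 3p strands of let-7 (let-7d-3p). It took less in families with more members, 46.3% ± 1.29 for miR-30a-5p among 5 strands and 34.1% ± 0.198 for let-7c-5p among 8.

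**Figure D3:**
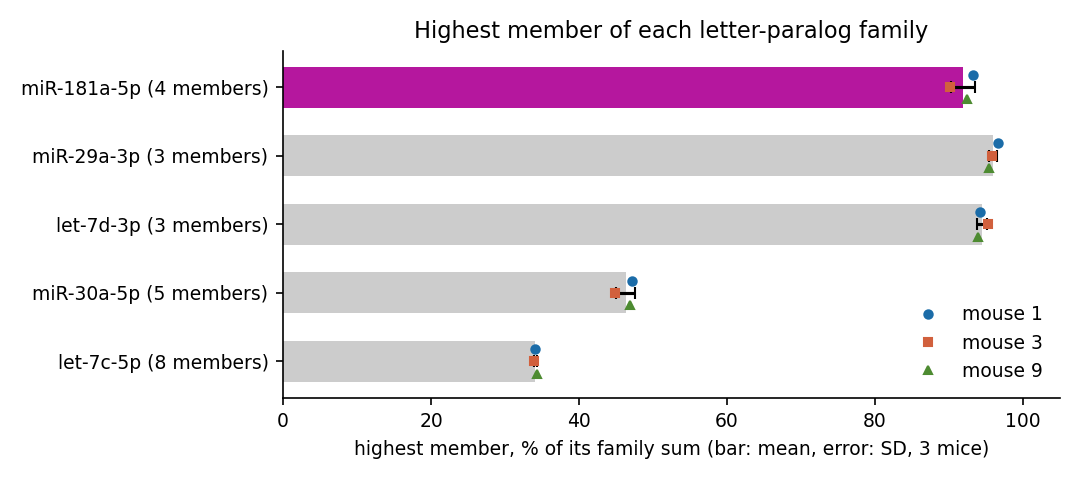
Share of the family sum held by its highest member (horizontal axis, percent) in the 5 families with at least 3 letter paralogs at a mean linear level of 100 or more, with bars at the mean, error bars of 1 SD over 3 mice and 1 symbol per mouse. Strands with a locus number in their names are left out. miR-181a-5p holds 91.9% of the miR-181 guides, close to miR-29a-3p and let-7d-3p and above miR-30a-5p and let-7c-5p.

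Each hairpin can release a strand from either side. In the 3 miR-181 hairpins with both strands above the floor, the 5p strand was the higher one in every mouse. A limma fit over all 165 hairpins with a larger arm of at least 100 tested the log2 level of 5p minus that of 3p. Of these, 54.5% were called with 5p higher, 43.6% with 3p higher and 98.2% in either direction, but 68 of the 165 had 1 arm at the floor throughout, which fixes the direction. For miR-181b-1, miR-181b-2 and miR-181d the 3p strand is listed at the floor in all mice, so they entered through 5p alone, and no ratio or call is given for them. The miR-181a-1, miR-181a-2 and miR-181c hairpins had both arms above the floor in every mouse, and all 3 passed with 5p higher. A wider set of 97 hairpins had neither arm at the floor throughout, though an arm could be at the floor in some mice. Of these, 55.7% were called with 5p higher, 42.3% with 3p higher and 97.9% in either direction. A call of this kind was thus the rule here. The 2 hairpins of miR-181a share their 5p strand.

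For the miR-181a-1 hairpin the 5p strand exceeded the 3p strand by 8.11, 8.06 and 8.08 log2 units in mice 1, 3 and 9. The values lay within 0.1 of each other, and the mean was 8.08 (SE 0.11, limma adjusted p 5.90e-07). Their SD was 0.03, and 1 of the 165 hairpins had a smaller one. For the miR-181a-2 hairpin the difference was 9.13, 7.76 and 7.78. Mouse 1 stood apart from the other mice there, the mean was 8.22 (SE 0.33, limma adjusted p 1.27e-05) and the SD was 0.79, larger than in 145 of the 165 hairpins. The contrast of both SDs was seen in the data and not tested. As the 5p row holds the reads of both hairpins, neither difference is the balance of 1 hairpin alone.

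For miR-181c the difference was 7.25, 6.52 and 7.52 log2 units, lowest in mouse 3, with a mean of 7.10 (SE 0.23, limma adjusted p 5.76e-06). Its size rests on a 3p strand near the floor. With a constant of 1 it was 8.02, and with 40 it was 5.79. Over the 97 hairpins with neither arm at the floor throughout, the median size of the difference was 5.14. Of these, 76.3% had a smaller one than miR-181a-1, 79.4% than miR-181a-2 and 70.1% than miR-181c. On the linear scale, the miR-181a 3p strands made up 0.702% ± 0.162 of all miR-181a strands (SD, n = 3).

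**Figure D4:**
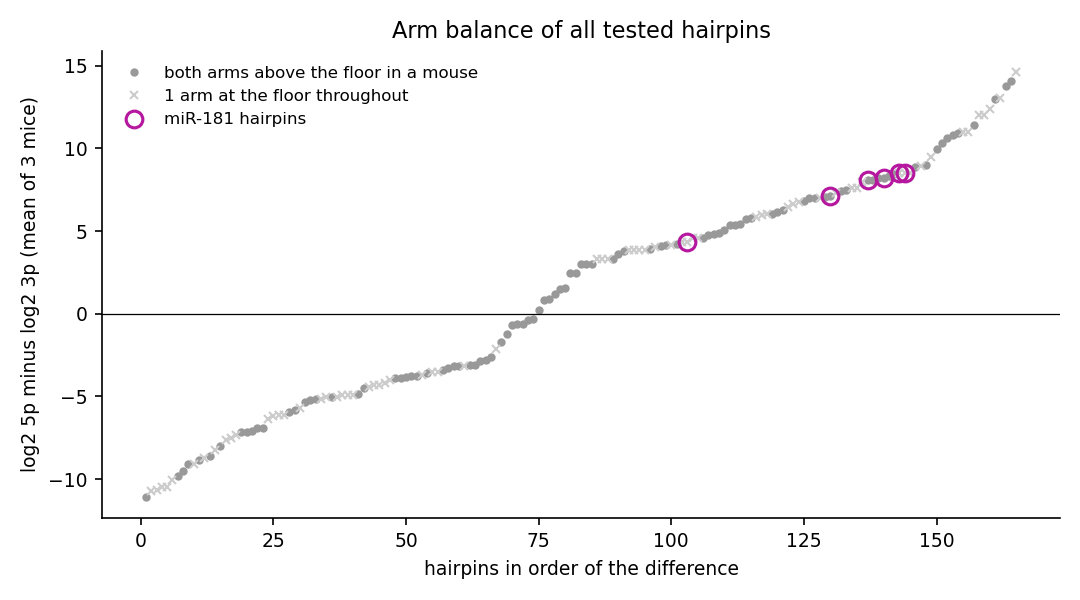
Mean log2 level of the 5p strand minus that of the 3p strand (vertical axis) for the 165 tested hairpins in rising order (horizontal axis), with crosses where 1 arm stood at the floor throughout and circles around the 6 miR-181 hairpins. The 3 miR-181 hairpins with both arms above the floor lie above 0. The other 3 have a 3p strand at the floor throughout, which fixed their sign in advance.

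Because miR-181a-5p is the same from chromosomes 1 and 2, only the 3p strands can be assigned to 1 of its hairpins in these data. The levels of these 3p strands do not measure how much miR-181a-5p each hairpin supplied. Their linear levels averaged 272.5 ± 49.9 for miR-181a-1-3p and 262.2 ± 118 for miR-181a-2-3p (SD, n = 3). miR-181a-1-3p made up 67.8% of both strands in mouse 1, 44.6% in mouse 3 and 44.6% in mouse 9. The log2 difference, miR-181a-1-3p minus miR-181a-2-3p, was 1.02 in mouse 1, -0.30 in mouse 3 and -0.30 in mouse 9. The chromosome 1 strand was the higher one in mouse 1, and the chromosome 2 strand in the other mice.

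A limma fit over the 12 pairs of strands that mark different hairpins of 1 miRNA put the mean difference of the miR-181a strands at 0.14 (SE 0.38, 95% interval -0.65 to 0.93, limma adjusted p 0.719). In this fit 75% of the pairs were called in either direction, 16.7% with the lower locus number higher and 58.3% with the higher one higher, and 8 of the 12 had 1 strand at the floor throughout. The miR-181a pair was not called, and the sign of its difference depended on mouse 1. Without that mouse the difference was -0.30, with a limma adjusted p of 0.0205 that rests on mice 3 and 9 alone. In the fit to all 3 mice, limma took the spread wholly from a trend over the 12 pairs (infinite prior degrees of freedom). The SD of the miR-181a pair itself, 0.76, entered its SE and 95% interval only through that trend. Only 12 pairs set the spread, so the p-values are less secure than those of the larger fits.

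**Figure D5:**
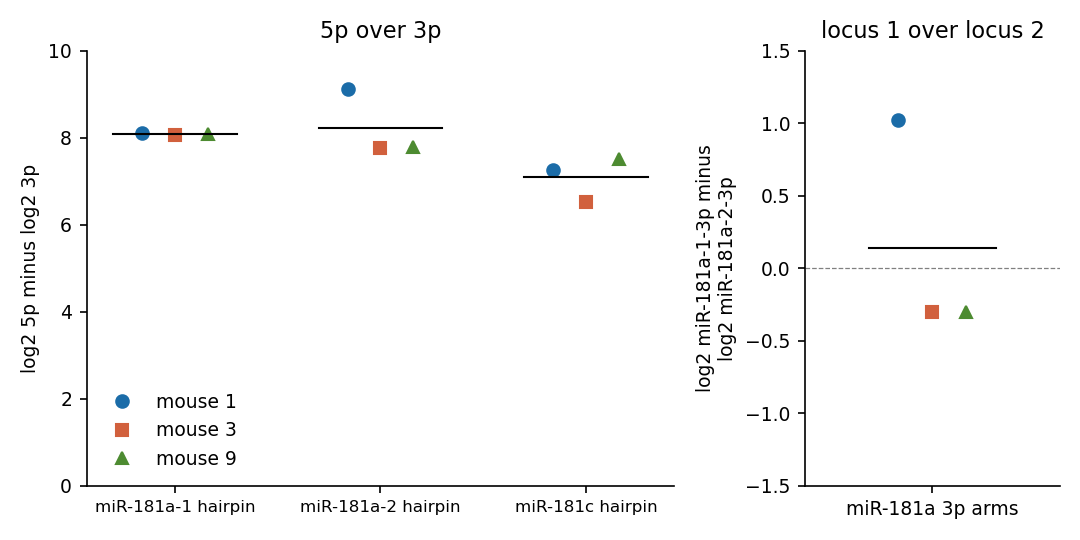
Left, log2 level of 5p minus 3p for the miR-181a-1, miR-181a-2 and miR-181c hairpins, and right, log2 level of miR-181a-1-3p minus miR-181a-2-3p, with 1 symbol per mouse and a bar at the mean. The miR-181a-1 symbols lie between 8.06 and 8.11, while mouse 1 stands apart from mice 3 and 9 for miR-181a-2 and in the difference between the 3p strands.

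The members differed in which mouse was high or low and in how far the mice lay apart. Among the 194 miRNAs with a mean linear level of at least 100 the median SD was 0.22 log2 units. The 6 family rows in that group had SDs of 0.06 (miR-181c-5p), 0.12 (miR-181b-5p), 0.21 (miR-181d-5p), 0.27 (miR-181a-1-3p), 0.29 (miR-181a-5p) and 0.68 (miR-181a-2-3p). Of the 194 rows, 3.61% had a smaller SD than miR-181c-5p and 91.2% a smaller one than miR-181a-2-3p.

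Likeness to miR-181a-5p was measured as the root mean square difference between the log2 deviations of each miRNA from its own mean over the 3 mice, as a description. Nearest among 188 other miRNAs were let-7d-3p (0.00379), let-7a-5p (0.00775) and the p53-responsive miR-34a-5p (0.0196). Within the family, miR-181a-1-3p lay at 0.0207, with 3 of the 188 closer. miR-181d-5p lay at 0.172, miR-181b-5p at 0.253, miR-181c-5p at 0.265 and miR-181a-2-3p at 0.642, with 171 of the 188 closer than the last. No test was made of this likeness, which rests on 3 mice.

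Markers of the cell types in the tissue are given beside these differences between mice, and their part in them was not tested. The striated muscle list, led by miR-133a-3p and miR-133b-3p, summed to 0.163% of the total in mouse 1, 3.57% in mouse 3 and 2.79% in mouse 9. That sum was nearly all miR-133a-3p, which made up 99.9%, 99.1% and 98.8% of it in mice 1, 3 and 9. In that list 2 of 7 were seen in every mouse, and miR-208a-3p and miR-499-5p stayed at the floor. The muscle miRNA miR-1a-3p had 3.32, 5.53 and 3.44 log2 units, and miR-206-3p and miR-208b-3p were each seen in 1 mouse. The leukocyte list, led by miR-150-5p and miR-342-3p, summed to 0.451%, 0.433% and 0.480% in mice 1, 3 and 9, with 5 of 7 seen in every mouse and miR-155-5p at the floor. The endothelial list, led by miR-126-3p and miR-126-5p, summed to 0.848%, 1.07% and 0.878%, with 4 of 4 above the floor.

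The list of miRNAs enriched in fat cells, led by miR-143-3p and miR-378a-3p, summed to 10.9%, 12.7% and 8.87% in mice 1, 3 and 9. All 8 of 8 were above the floor, but no other tissue was compared, so their presence does not identify the tissue. miR-143-3p alone made up 57.4%, 49.3% and 57.5% of the sum. The sum was highest in mouse 3, where miR-181a-5p was lowest, but so were those of the muscle, endothelial and epithelial lists. Only 3 of the 8 had their highest level there alone. Without miR-378a-3p the sums were 8.15%, 8.22% and 6.98%. The epithelial list, led by miR-203-3p and miR-205-5p, summed to 0.0692%, 0.157% and 0.0378%, with 4 of 7 above the floor in all mice. The erythroid list, led by miR-486-5p and miR-451a, summed to 2.38%, 1.51% and 1.38%, with 2 of 3 above the floor in all mice. miR-486-5p alone made up 88.1%, 87.1% and 87.0% of that sum in mice 1, 3 and 9.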

How the data were processed

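Total RNA of snap-frozen fat went into Illumina small RNA libraries, per the labels' protocols. The deposited values are log2 normalized counts per mature miRNA. Per the series' design text, the authors used the Gunaratne pipeline, mapped to mm10 (about 13.8 M reads in each sample), normalized counts to usable reads and added 40. The lowest deposited value is 10 in linear terms, and 260 values fall above it and under 40, so the constant removed here was 10. No aligner is given in the sources used here. The near-equal sorted columns resemble quantile normalization, which no source used here states.

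Differences were tested with limma 3.58.1 (R 4.3.3) on one group of 3 mice, with a prior trended on the mean level of the pair. The locus fit took pairs with a strand above the floor in at least 2 mice. Sequences and positions were read with Python 3.11.15. Of the rows, 1001 matched a RefSeq mature miRNA.

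The miRNAs named were the members, any miRNA with their seed, the neighbours of miR-181a-5p by level and by pattern, and the 2 highest of each marker list. Top members of other families and marker miRNAs at or near the floor were named after their values were seen. The members, lists and tests were chosen with earlier results of these data known. Alternatives were other constants (1 and 40), filters (none, or at least 1000, 100 for loci), median-ratio scaling, a prior without trend and leaving out each mouse.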

Additional observations from a re-analysis of the deposited data

How the results depend on the processing

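Leaving out each mouse moved the family share between 3.30% and 3.84%, and it was 3.47% with the constant left in. Median-ratio scaling divides all values of a mouse by 1 factor and cannot change a share. The 3.49% under that scaling is therefore no check of the result. Under the stricter filter fewer pairs were tested, and the calls numbered 57 hairpins with 5p higher and 36 with 3p higher, 16 paralog pairs with the later letter higher, and, of 4 locus pairs, 3 with the higher locus number higher and 0 with the lower one higher by limma (3 of the 4 had an unadjusted p below 0.05). Over the 8 alternatives, the 3 miR-181 hairpins with both arms above the floor kept direction and call in all 24 values, and the 6 guide pairs in 46 of 48. The exceptions were miR-181b-5p over miR-181c-5p without mouse 1 or mouse 3, where leaving out a mouse gave limma adjusted p-values of 0.0643 and 0.0504 for differences of 0.39 each. The difference of miR-181a-1-3p from miR-181a-2-3p turned to -0.30 without mouse 1, the mouse with the opposite sign, and leaving out each mouse gave values from -0.30 to 0.36. Of 60 member levels under alternatives 52 moved by no more than 1 SD, and the others belong to the 3p strands at or near the floor under another constant. Leaving out 1 of 3 mice cannot move a mean by more than 1 SD. Those values were thus bound to count as unmoved, and only the scaling and the constants could show a move. No paired analysis was possible because there is 1 group, with no other whose mice could be paired with these, while each difference between strands was taken within a mouse. Only an approximate depth is given for the samples, and the reads behind each value are unknown, which limits statements on strands at the floor.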
